A study of Mus musculus with 16 samples.

Results

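The genes described here are 8 genes of the early neutrophil lineage, Mpo, Elane, Prtn3, Ctsg, Ms4a3, Cebpe, Gfi1 and Csf3r, in femur and white adipose tissue of mice. Every probe that the platform annotation gives to one of these symbols was taken, without regard to its values, which gave 16 of the 25697 probes on the array and 8 of its 16593 named genes. The mice were males aged 17 weeks, all of the strain C3HeB/FeJ, an inbred one. Of the 8 mice, 4 were wild type and 4 belonged to line AEA001, which came from mutagenesis with ENU and is presented by the submitters as a model of osteoporosis carrying a mutation in Ednra, which encodes an endothelin receptor. The labels do not say whether the mutants carried 1 or both altered alleles, and a mutation from ENU is present in all cells, so the line does not separate bone from marrow. Each tissue and genotype was measured on 4 Illumina bead arrays, and the genotypes were compared in each tissue. The sources do not say whether marrow and muscle were removed from the femurs.

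Neutrophils arise in bone marrow from granulocyte and monocyte progenitors through the promyelocyte and myelocyte stages. At the promyelocyte stage the cell fills its primary, or azurophil, granules with myeloperoxidase (Mpo) and the serine proteases neutrophil elastase (Elane), proteinase 3 (Prtn3) and cathepsin G (Ctsg). These transcripts are largely shut off as the cell matures, so that blood and tissue neutrophils carry the proteins but little of the mRNA. Ms4a3, a membrane protein of the CD20 family, marks granulocyte and monocyte progenitors. Gfi1, a zinc finger repressor, and Cebpe, a transcription factor of the C/EBP family, direct the passage to later granulocyte stages. Csf3r encodes the receptor of granulocyte colony-stimulating factor, which drives neutrophil production and is present on mature neutrophils as well.

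Prtn3 and Elane lie next to each other in the RefSeq gene order of mouse chromosome 10 (assembly GRCm38.p6), and their start-proximal sequences are shown because these genes encode proteases of the same granule and the data give a value for both in both tissues. Each sequence is the 200 bases before the RefSeq start, 5′ to 3′ on the gene's strand, at chr10:79879467-79879666 (+) for Prtn3 and chr10:79886112-79886311 (+) for Elane. Capitals mark, in order, AGGAAGT, a core bound by PU.1 and other Ets factors, CAACGG, a Myb site, and TATAAG, which resembles a core promoter element.
Prtn3: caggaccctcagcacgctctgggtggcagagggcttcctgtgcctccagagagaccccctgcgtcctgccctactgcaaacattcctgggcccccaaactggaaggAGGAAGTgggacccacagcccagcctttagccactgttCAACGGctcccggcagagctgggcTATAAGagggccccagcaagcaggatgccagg
Elane: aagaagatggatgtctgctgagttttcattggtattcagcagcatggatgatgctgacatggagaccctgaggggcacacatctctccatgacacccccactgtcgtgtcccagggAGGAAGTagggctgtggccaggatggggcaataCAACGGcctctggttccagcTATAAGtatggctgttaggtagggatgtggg
The last motif ends 27 bases before the start in Prtn3 and 26 before it in Elane. The letters were searched on both strands in 32851 RefSeq promoter windows of this length, and the motifs were chosen after the sequences had been read. AGGAAGT was in 6.3% of windows, CAACGG in 3.4% and TATAAG in 5.3%, and the 3 together were in 3 windows, those of Prtn3, Elane and Rps27. Of the 8 windows of 7 of the genes, 2 held each of these motifs. The Runx core TGTGG was in 5 of the 8, against 41.6% of all windows, and the C/EBP motif GCAAT in 3, against 18.8%. These matches describe letters and show no binding.

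The values are the authors' normalized intensities, whose array medians lay between 25.2 and 25.3, and a value at or below 16 is treated here as not measured above the dim end of the array. The highest value on every array was 33738. Arrays carry no depth of reads, and their number sets the precision. Differences are log2 values of mutants minus those of wild types after values below 16 were set to 16, with limma's moderated SE from 4 arrays a genotype, and adjusted p-values are limma's over all probes tested. A gene with several probes is given first by the probe with the highest mean in femur, and levels of different probes are not compared. The gene lists in white adipose tissue use the probe with the highest mean there. Some listed genes, such as Cbfb and Klf4, thus have another probe than in femur. A p-value sets a difference against the spread between these mice only. The labels say nothing of litters or days, so an effect of these cannot be told apart from one of genotype. In whole tissue, more cells of a type and more RNA per cell cannot be told apart.

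3 features of the arrays bear on the results. The labels give 7 animal identifiers for 8 mice, since wild type replicate 3 and mutant replicate 4 share 1, and results are given with and without these arrays where a call changes. In white adipose tissue, the array of mutant replicate 2 carried femur transcripts: Bglap2, an osteocalcin gene of bone, was at 351 there and between -3.71 and 2.99 on the other 7 white adipose arrays, and the neutrophil gene S100a8 was at 9828 there against 424 to 1485. The femur arrays carried bone, marrow and muscle transcripts, with Bglap2 at 16278 to 21499, S100a8 at 24946 to 28636 and the muscle gene Myl1 at 27673 to 29382. Adipoq, the adipocyte hormone gene, was at 15666 to 22610 in white adipose tissue and 1551 to 2679 in femur.

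Of the 16 probes, 15 exceeded 16 on at least 4 of the 8 femur arrays and were tested there. The difference was above 0 for 14, where 47.1% of all femur probes were above 0, and below 0 for 1, the brightest probe of Mpo. Of the 15, 0 passed limma's adjusted threshold of 0.05, where 1 of all 14281 femur probes did (0.00700%). At an unadjusted p under 0.05, 9 of the 15 were higher in the mutants and 0 lower, against 8.30% higher and 8.59% lower among all probes. The 8 genes and the gene lists below were chosen with earlier results of these data known, so such shares are no independent comparison. All 4 mutant arrays lay above all 4 wild-type arrays for 6 of the 15, against 4.38% of all probes. Over the 8 genes by their brightest probe, 7 were higher and the median difference was 0.31. At an unadjusted p under 0.05, 4 were higher, against 6.53% of all genes by their brightest probe. The groups did not overlap for 2. Among all probes that share was 4.38% in this direction, and the share by genes was not taken. Among all 9789 genes tested in femur the median difference was -0.03, and 44.0% were higher.

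Of the granule proteases, Elane had intensities of 8919, 6023, 11031 and 8611 in the wild-type femurs and 11805, 11838, 11982 and 10018 in the mutant femurs. Wild type replicate 3 lay above mutant replicate 4, so the genotypes overlapped, while the other 3 mutants lay above every wild type. The means were 8646 ± 2053 (SD, n = 4) in the wild type and 11411 ± 932 (SD, n = 4) in the mutants, a difference of 0.43 ± 0.17 (limma adjusted p = 0.266, exact permutation p = 0.0571). Without wild type replicate 2, the lowest, the difference was 0.27 (limma adjusted p = 0.481).

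Prtn3, whose protease shares many substrates with elastase, had 7428, 6142, 8183 and 8090 in the wild-type femurs and 9866, 9947, 8201 and 9132 in the mutants. The genotypes did not overlap, but the lowest mutant, replicate 3, lay just above the highest wild type, also replicate 3. The difference was 0.32 ± 0.12 (limma adjusted p = 0.239, exact permutation p = 0.0286, the lowest possible with 4 arrays on each side). Ctsg, a protease with chymotrypsin-like activity, had 5773, 4077, 6940 and 5716 in the wild-type femurs and 8350, 8517, 6820 and 7627 in the mutants. Here too wild type replicate 3 exceeded the lowest mutant, so the genotypes overlapped. The difference was 0.50 ± 0.16 (limma adjusted p = 0.207, exact permutation p = 0.0571).

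**Figure D1:**
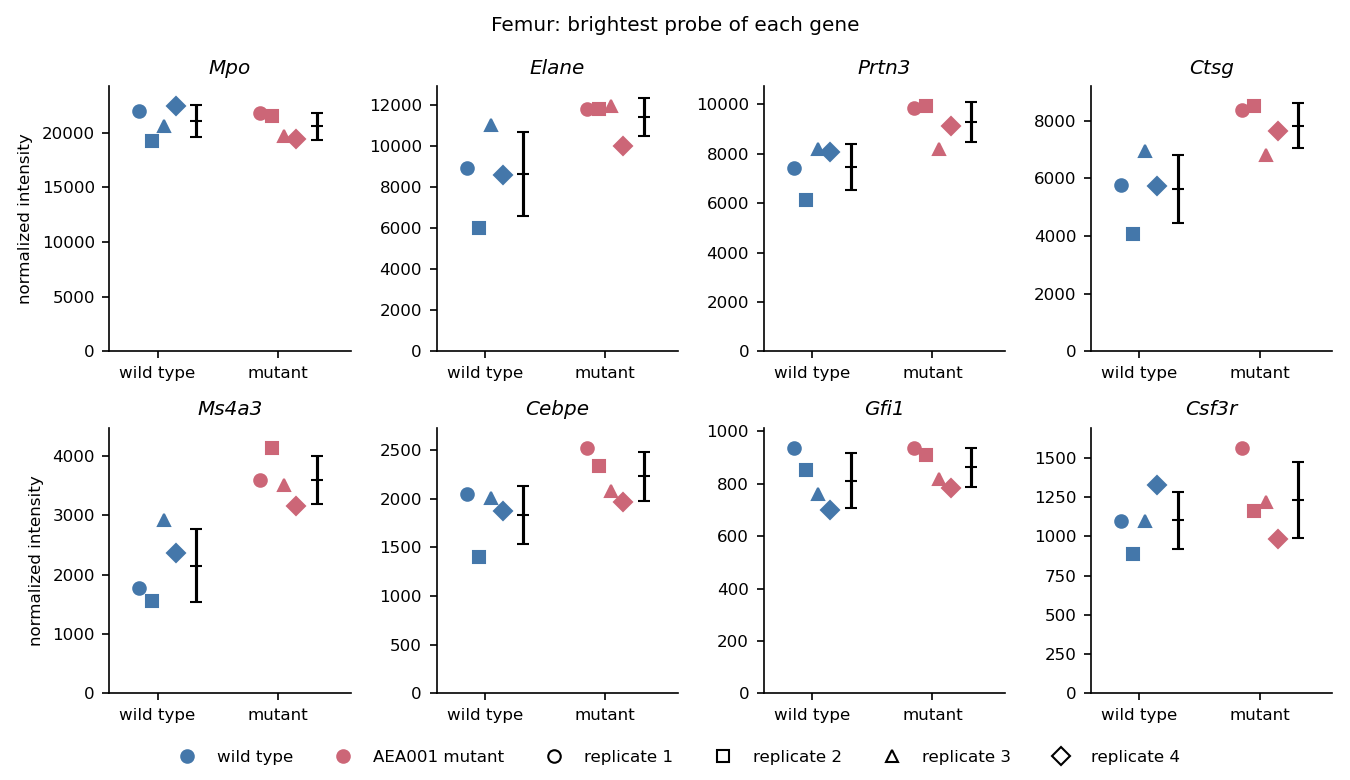
Intensity of the brightest probe of each of the 8 genes on each femur array, with the mean and SD of 4 arrays for each genotype, on linear axes that differ between panels. Prtn3 and Ms4a3 are the genes whose genotypes do not overlap, and wild type replicate 2 is the lowest of the 8 arrays for 7 of the 8 genes.

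Mpo, whose product makes hypochlorous acid from hydrogen peroxide and chloride, had 3 probes that gave different differences. Its brightest probe (ILMN_2600421) read 22008, 19249, 20603 and 22457 in the wild-type femurs and 21782, 21499, 19681 and 19368 in the mutants. The genotypes overlapped almost fully, and the difference was -0.03 ± 0.09 (limma adjusted p = 0.882, exact permutation p = 0.60). On the femur arrays this probe ranked between 39 and 56 of the 25697 probes, at the bright end. The second probe (ILMN_2925094) read 4931, 4587, 5398 and 5237 in the wild type and 6516, 6531, 5999 and 6103 in the mutants. All mutants were higher on it, by 0.32 ± 0.09 (limma adjusted p = 0.180). The third probe (ILMN_2719256) read 1600, 1234, 2769 and 1573 in the wild type and 3734, 3497, 3314 and 2814 in the mutants. The lowest mutant, replicate 4, lay just above wild type replicate 3, which was far above the other wild types. The difference on that probe was 0.96 ± 0.23, or 1.94-fold (limma adjusted p = 0.168, exact permutation p = 0.0286). Where the probes lie on the transcript was not used here.

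Ms4a3 had intensities of 1782, 1551, 2917 and 2368 in the wild-type femurs and 3599, 4144, 3510 and 3155 in the mutants. The genotypes did not overlap, and wild type replicate 3 was again the nearest to the mutants. The means were 2154 ± 614 (SD, n = 4) and 3602 ± 409 (SD, n = 4), a difference of 0.78 ± 0.19 (limma adjusted p = 0.171, exact permutation p = 0.0286), the largest among the brightest probes of the 8 genes. A dimmer probe of Ms4a3 read 361, 341, 348 and 395 in the wild type and 539, 614, 428 and 311 in the mutants. On it 3 mutants lay above all wild types and mutant replicate 4 below all of them, and the difference was 0.34 ± 0.19 (limma adjusted p = 0.397), 0.20 without mutant replicate 2 and 0.53 without mutant replicate 4.

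Among the regulators, Cebpe had 2054, 1403, 2005 and 1870 in the wild-type femurs and 2526, 2338, 2083 and 1971 in the mutants. Only mutant replicate 4 fell within the wild-type range, and the difference was 0.29 ± 0.14 (limma adjusted p = 0.336, exact permutation p = 0.114), or 0.17 without wild type replicate 2. Its second probe read 266, 121, 319 and 236 in the wild type and 392, 388, 290 and 356 in the mutants. The genotypes overlapped at wild type replicate 3 and mutant replicate 3, and the difference was 0.67 ± 0.27 (limma adjusted p = 0.268), or 0.38 without wild type replicate 2. Gfi1 had 938, 853, 761 and 698 in the wild-type femurs and 937, 912, 819 and 783 in the mutants. Both genotypes covered nearly the same range, and the difference was 0.09 ± 0.12 (limma adjusted p = 0.722), from 0.02 without wild type replicate 4 to 0.16 without wild type replicate 1.

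Csf3r had 5 probes, and the 2 brighter and the 3 dimmer ones gave different differences. On the brightest probe (ILMN_1255648) the wild-type femurs read 1099, 886, 1095 and 1329 and the mutants 1564, 1160, 1215 and 982. The genotypes overlapped widely, at 0.15 ± 0.17 (limma adjusted p = 0.670), and the next probe gave 0.18 ± 0.19 (limma adjusted p = 0.651). With single arrays left out, the first ranged from 0.0308 (without mutant replicate 1) to 0.255 (without mutant replicate 4) and the next from 0.0686 (without wild type replicate 2) to 0.329 (without mutant replicate 4). A dim probe (ILMN_1241302) read 49.3, 13.4, 84.6 and 60.7 in the wild type and 133, 137, 125 and 141 in the mutants. Another dim probe (ILMN_2707409) read 29.8, 23.1, 57.7 and 42.8 in the wild type and 89.7, 91.5, 78.5 and 86.3 in the mutants. On both, every mutant lay above every wild type and the mutants lay close together. The differences were 1.58 ± 0.43 (limma adjusted p = 0.182) and 1.26 ± 0.25 (limma adjusted p = 0.161). The third dim probe exceeded 16 on 3 of the 8 arrays, all of them mutant, and was not tested.

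**Figure D2:**
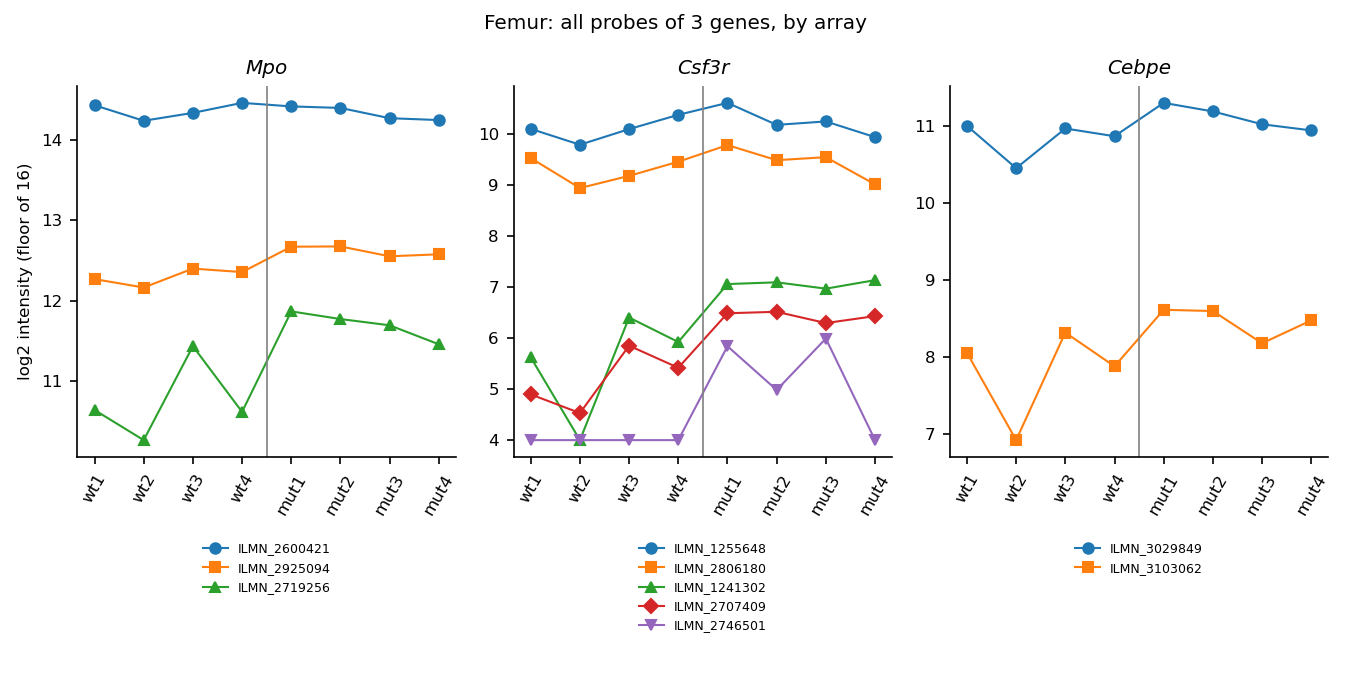
All probes of Mpo, Csf3r and Cebpe on each femur array, as log2 intensity with values below 16 set to 16 (log2 of 4). Each probe has its own line and marker, with wild types left and mutants right of the vertical line. The genotypes overlap on the brightest probes of Mpo and Csf3r, and every mutant lies above every wild type on the 2 dimmer Mpo probes and on 2 dim Csf3r probes.

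**Figure D3:**
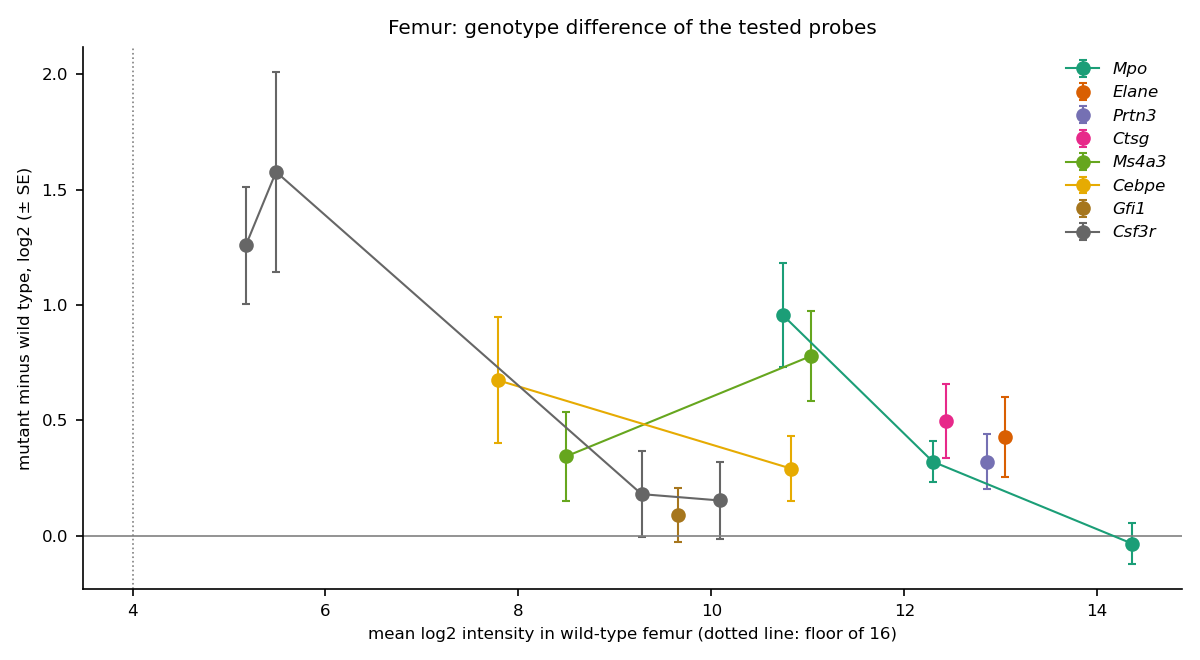
Mutant minus wild-type difference in femur (log2, bars give limma's moderated SE, 4 arrays a genotype) of the 15 tested probes against their wild-type mean log2 intensity. Of the 15 differences, 14 are above 0, and the largest, 1.58 and 1.26, belong to dim Csf3r probes.

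By their brightest probes, wild type replicate 2 was the lowest of the 8 femur arrays for 7 of the 8 genes, wild type replicate 3 the highest wild type for 4 and mutant replicate 4 the lowest mutant for 6. Gfi1 was the gene not lowest on wild type replicate 2, and its highest array was wild type replicate 1. Without wild type replicate 3, 4 of the 15 probes passed as higher, where 3.02% of all femur probes did. They were the third Mpo probe (1.19, limma adjusted p = 0.0112), the brighter Ms4a3 probe (0.94, limma adjusted p = 0.0241) and the dim Csf3r probes ILMN_2707409 (1.48, limma adjusted p = 0.0126) and ILMN_1241302 (1.88, limma adjusted p = 0.0430). Without both arrays that share an animal identifier, 3 of these 4 passed, all but ILMN_1241302, where 1.65% of all probes passed as higher. The brightest probes of Mpo, Elane, Prtn3, Ctsg, Cebpe, Gfi1 and Csf3r did not pass in either of these fits. With any other single femur array left out, mutant replicate 4 included, 0 of the 15 probes passed. In 1 fit of all 16 arrays, where femur and white adipose tissue share the estimate of spread, the dim Csf3r probes ILMN_1241302 and ILMN_2707409 passed in femur (limma adjusted p = 0.0439 and 0.0117), where 0.508% of all probes passed as higher. Both lay below 16 on every white adipose array, so that the floor gave them no spread in that tissue.

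Other genes of the same pathway were taken from lists of textbook members, each gene by its brightest probe, and 0 genes of any list passed the adjusted threshold in femur. Counts at an unadjusted p under 0.05 are to be read against 6.53% higher and 9.17% lower among all 9789 genes by their brightest probes. Of 11 other genes of primary granules and lysosomes, 7 were higher and 4 lower, with a median of 0.24, and 5 were higher and 0 lower at an unadjusted p under 0.05. The macrophage and neutrophil lysozyme gene Lyz2 was at 0.43 ± 0.14 (limma adjusted p = 0.215), its neighbour in the family Lyz1 at -0.03 ± 0.08 and the granule membrane gene Cd63 at 0.27 ± 0.10. Of 18 genes of granulocyte and monocyte progenitors, 13 were higher and 5 lower, with a median of 0.22, and 4 were higher and 1 lower at an unadjusted p under 0.05. Fcnb, which encodes a ficolin of immature myeloid cells, was at 0.55 ± 0.18 (limma adjusted p = 0.210), the granule membrane gene Nkg7 at 0.56 ± 0.17 (limma adjusted p = 0.187) and the Runx partner Cbfb at 0.09 ± 0.09. Of 20 regulators and signalling genes of granulopoiesis, 13 were higher and 7 lower, with a median of 0.15, and 0 were higher and 1 lower at an unadjusted p under 0.05. The lower one, named after its value was seen, was Gfi1b, at -0.42 ± 0.13 (limma adjusted p = 0.201). Gfi1b is a repressor related to Gfi1 that acts in red cell and platelet precursors. Cxcl12, which retains neutrophils in marrow, was at -0.09 ± 0.09, the transcription cofactor Lmo4 at 0.15 ± 0.09 and the phosphatase Ptpn6 at -0.00 ± 0.08.

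Genes of later granulocyte stages were also above 0. Of 18 genes of secondary and tertiary granules, 18 were higher, with a median of 0.34, and 6 were so at an unadjusted p under 0.05, against 6.53% of all genes. Lactoferrin (Ltf) was at 0.04 ± 0.08, Ngp at 0.30 ± 0.14 and the iron-chelating lipocalin Lcn2 at 0.43 ± 0.19 (limma adjusted p = 0.299). Of 16 genes of mature neutrophils, 15 were higher, with a median of 0.49, and 10 were so at an unadjusted p under 0.05, against 6.53% of all genes. S100a8 was at 0.08 ± 0.08, its partner S100a9 at 0.00 ± 0.08 and Retnlg, a resistin-like gene, at 0.51 ± 0.13 (limma adjusted p = 0.173). Of 11 inhibitors of neutrophil serine proteases, 6 were higher and 5 lower, with a median of 0.14, and 2 were higher and 0 lower at an unadjusted p under 0.05. Serpinb1a, an intracellular inhibitor of elastase, cathepsin G and proteinase 3, was at 0.67 ± 0.17 (limma adjusted p = 0.177), Serpinb6a at 0.14 ± 0.11 and Serpina3n, an acute phase serpin, at 0.14 ± 0.26. Of 15 proliferation genes, 8 were higher and 7 lower, with a median of 0.003, and 0 were higher and 1 lower at an unadjusted p under 0.05. The replication helicase genes Mcm4 and Mcm5 were at -0.10 ± 0.10 and 0.05 ± 0.10, and Birc5, which acts at cell division, at -0.00 ± 0.10.

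**Figure D4:**
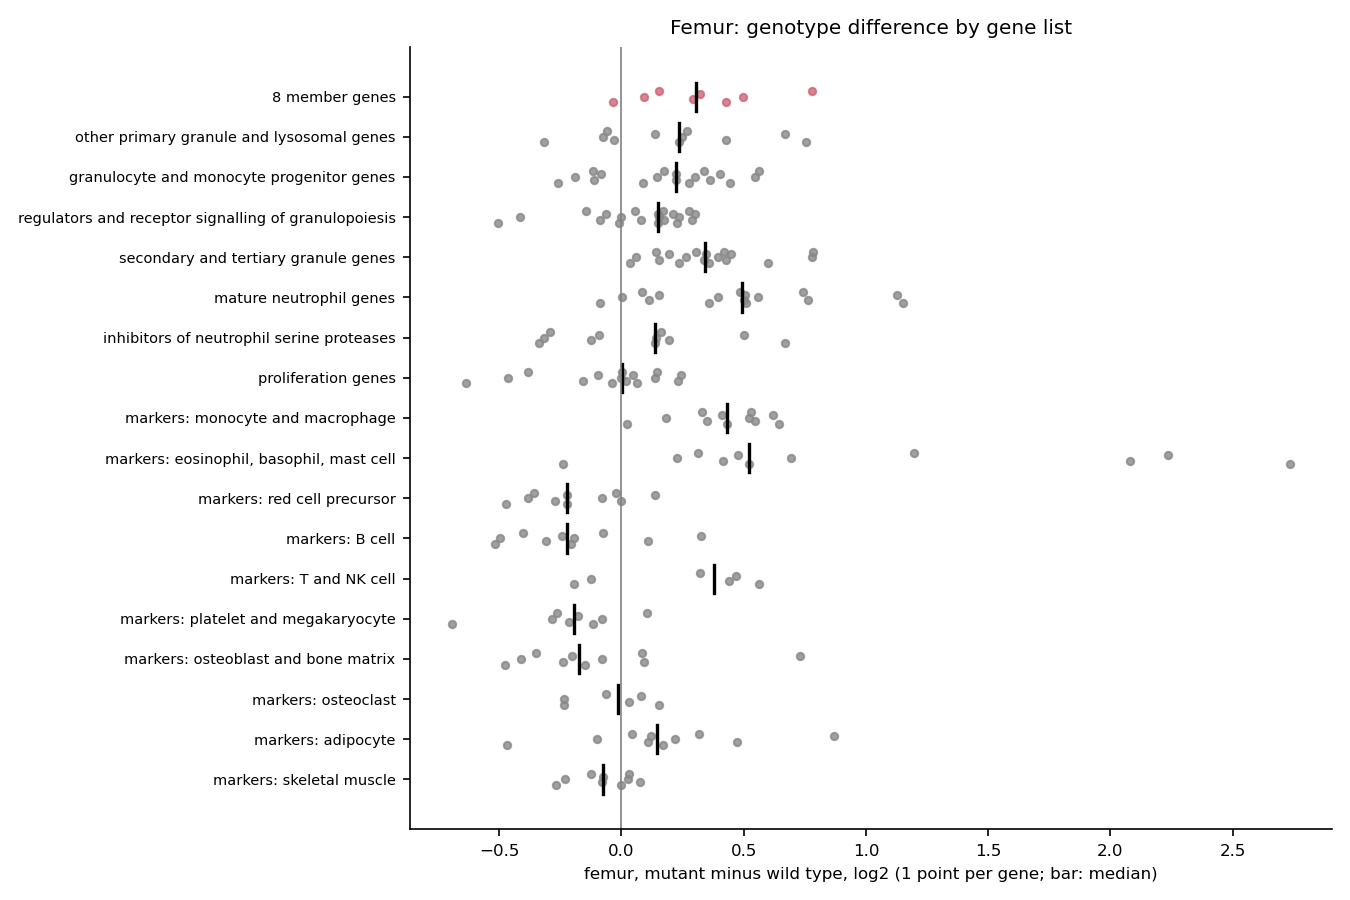
Mutant minus wild-type difference in femur (log2) of every tested gene in each list, 1 point a gene by its brightest probe, with the median of each list. The medians run from 0.003 for proliferation genes to 0.49 for mature neutrophil genes among the lists of the pathway.

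Marker lists of other cell types also had medians away from 0, and their part in the values of the 8 genes was not tested. All 11 tested monocyte and macrophage markers were higher, with a median of 0.43 and summed intensities of 12050 to 18750 in wild-type and 19150 to 20820 in mutant femurs. Ly6c1 was at 0.53 ± 0.17 and F13a1 at 0.02 ± 0.11. Of 11 eosinophil, basophil and mast cell markers, 10 were higher, with a median of 0.52 and sums of 3310 to 19930 against 25620 to 28400. Prg2, an eosinophil granule protein gene, was at 2.24 ± 0.93 and Prss34, a basophil and mast cell protease gene, at 0.48 ± 0.14. Of red cell precursor markers 9 of 10 were counted as lower (median -0.22). These include Hba-a1, which did not differ: its mean log2 was 15.042, with an SD of 0, in both genotypes. Of B cell markers 8 of 10 were lower (median -0.23), of platelet markers 7 of 8 (median -0.20) and of bone matrix markers 7 of 10 (median -0.18). Of T and NK cell markers 4 of 6 were higher (median 0.38), of osteoclast markers 3 of 6 (median -0.02), of adipocyte markers 8 of 10 (median 0.14) and of muscle markers 3 of 9 (median -0.08), and 0 markers of any type passed the adjusted threshold.

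The genes whose pattern over the 8 femur arrays was most like the mean standardized pattern of the 8 genes, by Pearson's r across these arrays, were Tnfsf13b (0.990), Ffar2 (0.982), Aldh3b1 (0.978), Arl11 (0.977), Pglyrp1 (0.974) and Ankrd22 (0.974). After the genotype means were removed, r was between 0.953 and 0.988 for these 6. The mean pattern was -1.515 on wild type replicate 2, -0.209 to -0.057 on the other wild types and -0.127 to 1.072 on the mutants. That array thus weighs much in each r, and r was not taken without it. The arrays share their normalization, and 8 points of 2 genotypes give a description only.

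White adipose tissue, which is no site of granulocyte production, served as the contrast. Of the 15 probes in the fit of all 16 arrays, 10 entered it through femur alone, so that their higher femur value follows from the filter and is given as a description. The other 5, the brightest probes of Elane, Prtn3, Cebpe, Gfi1 and Csf3r, were kept in both tissues, and all 5 were higher in wild-type femur by limma's threshold, where 33.8% of the 12882 probes kept in both tissues were. Mpo, Ctsg and Ms4a3 did not exceed 16 on any wild-type white adipose array, so their differences are lower bounds, at least 10.36, 8.43 and 7.03 on the log2 scale. The difference was 7.57 ± 0.34 for Elane (limma adjusted p = 1.30e-11), 6.36 ± 0.28 for Cebpe, with white adipose values on both sides of 16, and 5.06 ± 0.16 for Gfi1. It was 4.35 ± 0.16 for Prtn3 (limma adjusted p = 1.27e-12) and 4.02 ± 0.17 for Csf3r (limma adjusted p = 5.75e-12). These 5 calls held under every alternative run, those of the tissue pairing included.

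Between genotypes, 5 of the 16 probes were measured on enough white adipose arrays to be tested, and 0 passed the adjusted threshold, where 2 of 14342 probes did (0.0139%). Of the 5, 2 were higher at an unadjusted p under 0.05, against 12.7% of all probes, and the same 2, Elane and Prtn3, had groups that did not overlap, against 8.0%. Elane read 40.9, 47.4, 45.8 and 44.6 in the wild type and 66.7, 311, 93.7 and 86.5 in the mutants. The value of 311 was on the array of mutant replicate 2 with femur transcripts, and the other 3 mutants also lay above every wild type. The difference was 1.35 ± 0.42 (limma adjusted p = 0.122, exact permutation p = 0.0286), and without mutant replicate 2 it was 0.87 (limma adjusted p = 0.165). With the spread estimated in 1 fit of all 16 arrays its limma adjusted p was 0.0375, in a fit where 2.55% of all probes passed as higher.

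Prtn3 read 265, 308, 449 and 471 in white adipose tissue of the wild type and 471, 517, 524 and 479 in the mutants. The lowest mutant, replicate 1, lay less than 1 unit above wild type replicate 4. The difference was 0.46 ± 0.19 (limma adjusted p = 0.173, exact permutation p = 0.0286) and 0.44 without mutant replicate 2. Csf3r read 83.1, 71.9, 50.8 and 67.9 in the wild type and 60.8, 74.0, 56.9 and 58.4 in the mutants, which overlapped, at -0.12 ± 0.16, from -0.01 without wild type replicate 1 to -0.25 without wild type replicate 3. Gfi1 was at 0.20 ± 0.18 (0.09 without wild type replicate 4, 0.31 without mutant replicate 1) with all arrays between 19.3 and 34.6, and Cebpe at 0.01 ± 0.35 with arrays from 11.8 to 36.8. Every list of the pathway had a median below 0 in this tissue, and the marker lists had medians of both signs. Of all genes tested there 54.7% were higher, and 0 genes of any list passed the adjusted threshold. Of 11 other primary granule and lysosomal genes 11 were lower (median -0.38), and of 10 monocyte and macrophage markers 10 were lower (median -0.45). Of 10 secondary and tertiary granule genes 7 were lower (median -0.54), and of 9 mature neutrophil genes 7 were lower (median -0.15). S100a9, named after its value was seen, was at 3.29 ± 1.30 in that list, with every mutant above every wild type. Its log2 SD was 3.07 in the mutants and 0.17 in the wild type. The summed intensity of the mature neutrophil list was 17470 on the array of mutant replicate 2 with femur transcripts. That sum was 3907 to 4133 on the other mutant arrays and 4084 to 7371 in the wild type. The part of that array in the S100a9 value was not tested. Of 7 red cell precursor markers 7 were higher (median 0.32), and of 5 muscle markers 5 were higher (median 1.65). The mean log2 of the muscle markers was 11.07 on the array of mutant replicate 2 with femur transcripts. It was 6.96 to 8.38 on the other mutant arrays and 7.05 to 7.91 in the wild type. For the red cell markers the same values were 9.08, 8.09 to 8.17 and 7.54 to 7.96.

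Mpo, Ctsg and Ms4a3 were above 16 in white adipose tissue almost only on the array of mutant replicate 2. The brightest Mpo probe was at 545 there, and on the other white adipose arrays between -11.5 and 16.4. Ctsg was at 154 there and between -4.21 and 3.88 elsewhere, and Ms4a3 at 34.1 there, with no other array above 16. As a share of the same animal's femur intensity, the white adipose value of mutant replicate 2 was 2.54% for Mpo, 2.63% for Elane, 1.81% for Ctsg and 0.822% for Ms4a3. In the other animals the share for Elane was 0.416% to 0.864%.

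**Figure D5:**
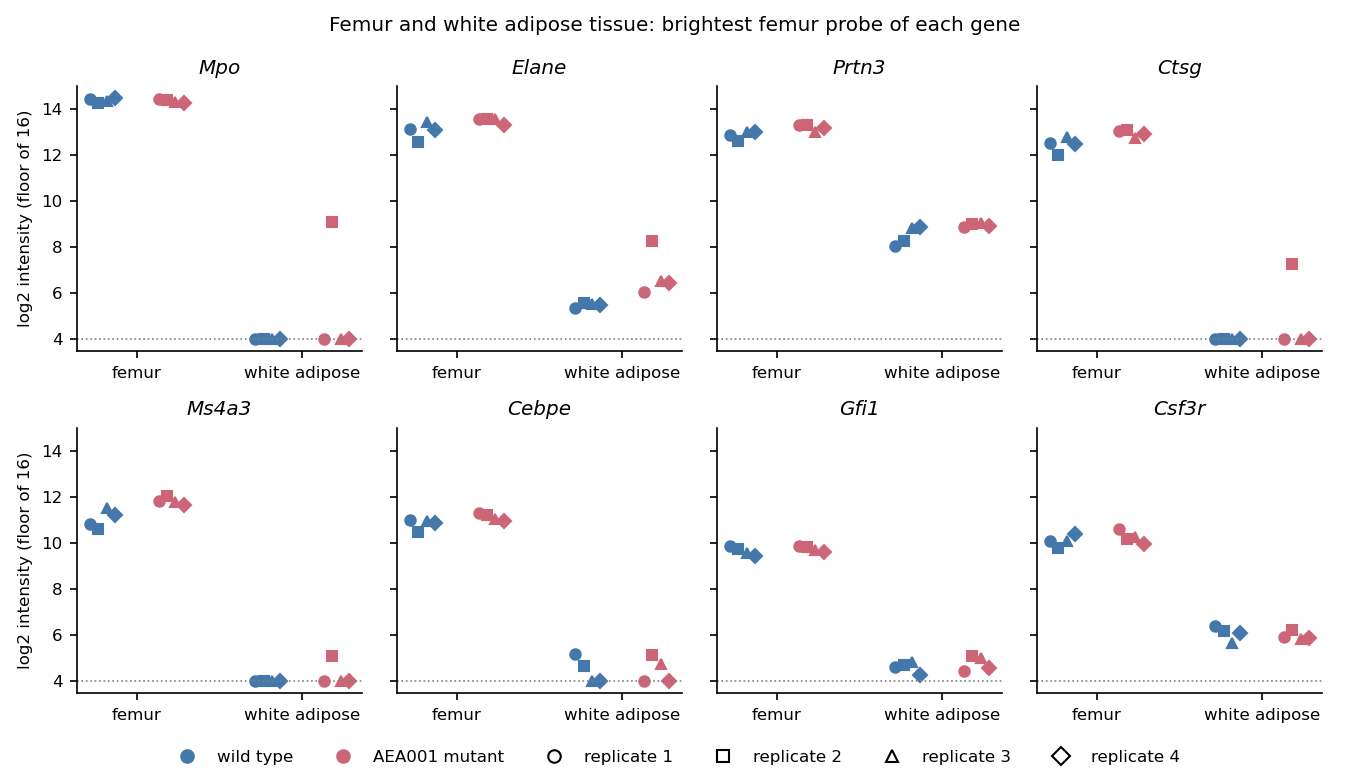
Log2 intensity of the brightest probe of each gene on the 8 femur and 8 white adipose arrays, values below 16 set to 16 (log2 of 4), by genotype. All 8 genes are higher in femur on every array, and in white adipose tissue Mpo, Ctsg and Ms4a3 stand above the floor mainly on the array of mutant replicate 2.

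The genotype effect was also compared between the tissues in the fit of all 16 arrays, where 7.60% of 15741 probes differed by limma's threshold. Of the 5 probes kept in both tissues 0 passed, against 8.46% of all probes kept in both. Of the 10 that entered through femur alone, 1 passed, the dim Csf3r probe ILMN_2707409, with a difference of 1.26 ± 0.28 (limma adjusted p = 0.0257). All white adipose arrays of that probe were below 16, so its white adipose effect is 0 with no spread by the floor, and the value is its femur difference. With femur and white adipose arrays paired by animal, as a difference within each animal, its limma adjusted p was 0.111 and 0 of all probes passed. With the animal as a random block instead, 5.32% of all probes passed, and 1 of the 15. The probe ILMN_2707409 was also not called without wild type replicate 1 (0.0967) or 2 (0.0959). Nor was it called without mutant replicate 1 (0.0572), 2 (0.0750), 3 (0.0654) or 4 (0.0732). These are limma adjusted p-values. For Elane the femur effect minus the white adipose effect was -0.92 ± 0.48 (limma adjusted p = 0.225), or -0.46 without mutant replicate 2. For Prtn3 it was -0.13 ± 0.23 (limma adjusted p = 0.727), or 0.02 without wild type replicate 1. For Mpo, Ctsg and Ms4a3 the white adipose side rests on the array of mutant replicate 2, and without that animal the difference was 0.45 in place of -0.32 for Ctsg and -0.07 in place of -1.31 for the brightest Mpo probe.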

How the data were processed

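Total RNA of femur and white adipose tissue of 8 mice was extracted with Trizol and column clean-up and labelled as biotin cRNA, per the labels' protocols. The deposited values are the authors' normalized intensity of each probe, not logged. The submitters' processing notes name GenomeStudio 2011.1. How background was corrected and arrays were normalized is not given in the sources used here. Between 25.3% and 25.4% of values per array were negative, and sorted values of the 16 arrays differed by at most 0.797, so differences in total RNA between arrays are not visible. A table of signals before normalization has 16 columns whose names match no sample label and was not used, so neither neqc nor a filter on detection was run.

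Log2 was taken after raising every intensity below 16 to that floor, which understates changes of dim probes. Tests in a tissue used probes above 16 on 4 or more of its 8 arrays, and fits of all 16 arrays used probes kept in either tissue. The platform annotation named 23978 probes with 1 gene, 0 with several and left 1719 without a name. The RefSeq table of GRCm38.p6 gave the current symbol for 23962 of them. Genotypes were compared by two-sided limma tests (version 3.58.1, R 4.3.3; lmFit, then eBayes) with Benjamini-Hochberg adjustment over all probes tested and a threshold of 0.05. Each member probe was also tested in each tissue with a two-sided exact permutation test over 70 relabelings. Femur and white adipose arrays of an animal share a replicate number and an identifier. Their deviations from the group means correlated between -0.29 and 0.04, and the paired fit is given beside the tissue comparison. The limma fits were tested on simulated data. Alternatives changed the floor, the scale, the filter on dim probes, the normalization, the model of the variance, the weights of arrays and the blocks, or left out each replicate or the pair of arrays with 1 identifier.

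The members and gene lists were chosen with earlier results of these data known. The text names all probes of the members, the 3 genes of highest femur signal in each list, the 2 of highest signal in marker lists (some are given by counts only) and the 6 genes of most similar pattern.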

Additional observations from a re-analysis of the deposited data

Results flagged for a closer look

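In white adipose tissue of mutant replicate 2, 5 probes stood far from the other 3 mutant arrays. Ctsg was at 154, against -4.21 to -0.521 on the others. Mpo was at 545, 89.6 and 31.4 on its 3 probes, against highest values of 16.4, 1.61 and 15.7 on the others. Ms4a3 was at 34.1, against -14.9 to -3.57. The same array carried the femur transcript Bglap2 at 351. In femur, Elane of mutant replicate 4 was at 10018, below the 11805 to 11982 of the other mutants. Of 46 groups of 4 arrays examined, 6 held such an array, and 5 of these were the white adipose array of mutant replicate 2. For Ctsg, Ms4a3 and the 2 dimmer Mpo probes, the floor of 16 made the other 3 mutant arrays equal. Any value above 16 stands out in such a group, so the rate of about 1 in 20 groups by chance does not apply there.

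The genotype effect of the dim Csf3r probe ILMN_2707409 differed between femur and white adipose tissue by 1.26 in limma's fit of all 16 arrays (limma adjusted p = 0.0257). All its white adipose values were below 16, so it entered that fit through femur alone and the value is its femur difference. With the difference taken within each animal its limma adjusted p was 0.111. With the animal as a random block, 1 of the 15 probes passed.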

How the results depend on the processing

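In femur, no difference of the 15 tested probes changed sign under any alternative. The count of called femur probes, 1, was 2 with no filter on dim probes, with a floor of 8 or with array weights, and 3 with robust eBayes and a trend of variance on mean. It was 0 for probes above 32 on all 8 arrays, with a floor of 32 or on an offset scale. It was 152 in 1 fit of all 16 arrays and 398 without the 2 arrays of 1 animal identifier, and 0 to 702 when each replicate was left out, with 702 without wild type replicate 3 and 0 otherwise. In white adipose tissue the count, 2, was 0 with no filter, with probes above 32, with a floor of 8, on the offset scale and without the arrays of 1 identifier, 1 with a floor of 32, 7 with the trend, 936 in 1 fit of all 16 arrays, and 0 to 3 when each replicate was left out. The count for the difference between tissues, 1197, was 1890 without the 2 animals of 1 identifier and 1 to 2828 when each was left out, and that for femur against white adipose tissue, 11567, stayed within 1.5 times.

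Same-numbered wild-type and mutant arrays share only a number: their deviations correlated between -0.07 and 0.06 in femur and -0.06 and 0.33 in white adipose tissue, and the replicate block gave 0 called probes in each tissue. The difference within each animal gave 0 called probes for the difference between tissues, against 1197 without it. The animal as a random block gave 837.

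In white adipose tissue Cebpe took the opposite sign with a floor of 8 (-0.0594), on the offset scale (-0.0137), and on leaving out mutant replicate 2 (-0.216) or 3 (-0.0758) or wild type replicate 3 or 4 (-0.142 for each), with omissions ranging from -0.216 to 0.259. The difference between tissues took the opposite sign for Gfi1 with a floor of 32 (0.0567), for Prtn3 without wild type replicate 1 (0.0171), and without mutant replicate 2 for Ctsg (0.454) and the second Mpo probe (0.303). On leaving out each animal these 3 genes ranged from -0.219 to 0.0171 (Prtn3), -0.626 to 0.454 (Ctsg) and -0.525 to 0.303 (Mpo). The difference between tissues gained a call 7 times. With a floor of 32 these were the brighter Ms4a3 probe (0.756, limma adjusted p = 0.0343), the third Mpo probe (0.956, 0.0264) and Csf3r ILMN_1241302 (1.33, 0.0164). Without wild type replicate 3 they were that Mpo probe (0.943, 0.0455) and that Csf3r probe (1.88, 0.0148), which also passed with the trend (1.58, 0.0380) and without the 2 animals of 1 identifier (1.86, 0.0442). All 3 probes entered through femur alone. The 7 lost calls were all of Csf3r ILMN_2707409. The causes were not tested. Near the floor of 16, signal over background limits what can be seen.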
